A study of Homo sapiens with 17 samples.

Results

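The 10 genes described here encode the proteins that copy, set and remove DNA methylation: *UHRF1* and *DNMT1* of the maintenance step, the de novo methyltransferases *DNMT3A* and *DNMT3B*, the remodelling factors *HELLS*, *CDCA7* and *CDCA7L*, and the dioxygenases *TET1*, *TET2* and *TET3*. They were listed by symbol, with earlier results of these data known, and 10 of the 60664 genes in the RNA-Seq table were matched to them by Ensembl identifier. The cells were SF8628, an established line of diffuse intrinsic pontine glioma (DIPG) with the H3.3K27M mutation, grown as a monolayer in medium with serum. One group received the solvent DMSO as vehicle for 24 hours, another DMSO for 48 hours, and the remaining groups received 1 μM AZD5153 for 24 or for 48 hours. AZD5153 is an inhibitor that occupies the bromodomains of BET proteins, which read acetylated histones. With 3 replicate libraries per group there were 12, all from 1 tumor line. The question for these genes was how their transcripts responded to BET bromodomain inhibition at either time.

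Methylation of cytosine in CpG dinucleotides is lost passively when DNA is copied unless it is restored on the new strand. UHRF1 binds hemimethylated CpG and recruits DNMT1, which methylates the new strand, whereas DNMT3A and DNMT3B methylate unmodified sites. HELLS is a nucleosome remodeller of the SNF2 family that acts with CDCA7 to open chromatin for maintenance, and TET enzymes oxidize methylated cytosine on the way to its removal. Gliomas with mutant histone H3 or mutant IDH are known for altered DNA methylation, and many maintenance genes are transcribed under E2F factors as cells enter S phase. No methylation was measured in the data analysed here, and all values below are transcript levels.

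Each library held 15759148 to 27335220 reads on genes (median 20737337). The DMSO 24-hour replicate 1 stood apart from the other libraries of its group, since its counts gave a chi-square of 16.8 and 25.6 per degree of freedom against replicates 2 and 3 and every other replicate pair gave 5.21 or less, so calls of the 10 genes that change without it are given both ways. The sources used here do not say whether replicates came from separate cultures, and p-values then measure only the spread between these libraries. Of 10 glioma and neural progenitor markers, *VIM* had 14454 to 28352 normalized counts and *CD44* 4518 to 7603, whereas *OLIG2* and *OLIG1* were at 0 in all 12 libraries. *NES* had 527 to 2205 normalized counts, *SOX2* 119 to 252, *GFAP* 22.8 to 57.5, *NCAM1* no more than 10.7 and *PDGFRA* no more than 5.4, so few of the transcripts that define the labelled glioma were at a sizeable level. Of these markers *NES* fell by 1.43 at 24 hours and by 1.87 at 48 hours with AZD5153 on the log2 scale, *SOX2* fell by 0.60 and by 0.30, *CD44* rose by 0.17 and 0.53, and *VIM* fell by 0.28 at 24 hours and had 0.01 at 48 hours, which did not pass the test. The highest *VIM* count, 28352, was that of the DMSO 24-hour replicate 1, and without this library *VIM* fell by 0.12 at 24 hours (limma, adjusted p = 0.0283). Of 8 markers of other cell types, *CDH5* was at 0 in all libraries and *PTPRC*, *ALB* and *CD68* stayed under 5 normalized counts, with means of 14.4 in DMSO and 3.30 in AZD5153 for *EPCAM*. *PECAM1*, an endothelial marker with a mean of 408 normalized counts in DMSO and 36.9 in AZD5153, fell further than any of the 10 genes (log2 fold change -2.71 at 24 hours, -4.07 at 48 hours). *DES* was lower and *KRT18* higher with AZD5153 at both times. The summed level of the list at 24 hours was 1195 to 1221 with DMSO and 1067 to 1191 with AZD5153. At 48 hours it was 1546 to 1571 and 1409 to 1470. All libraries came from 1 cultured line, so these counts do not show that other cell types were present, which was not tested. In bulk libraries, fewer cells expressing a gene and less RNA per cell cannot be told apart.

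An E2F word lies in the 300 bases around the start (250 before and 50 after) of 4 of the 10 genes, *UHRF1*, *DNMT1*, *HELLS* and *CDCA7*, and the stretches are shown because these 4 hold the word. All 4 fell with AZD5153 at 24 hours, as did 5 of the 6 genes whose windows lack the word, beside 34.6% of all genes tested. At 48 hours *UHRF1*, *DNMT1* and *CDCA7* fell, as did *DNMT3A*, *DNMT3B*, *CDCA7L*, *TET1* and *TET2*. *HELLS* had a log2 fold change of -0.17 there, which passed the test only under 3 of 24 alternative settings. Whether the word bears on the response was not tested. The words searched on both strands were TTTCGCGC, TTTGGCGC, TTTCCCGC and TTTGCCGC, and 3.30% of the 34943 windows of this length in the RefSeq promoter table (GRCh38.p14) hold one. A match describes letters and is not evidence of binding. The sequences run 5′ to 3′ on the strand of the gene and end at the base before the start for *UHRF1* (chr19:4909251-4909500, plus strand), *HELLS* (chr10:94545538-94545787, plus strand), *CDCA7* (chr2:173354622-173354871, plus strand) and, as the gene that did not fall, *TET3* (chr2:73984660-73984909, plus strand). For *DNMT1* the word spans the start, and the 30 bases around it are given (chr19:10194937-10194966, minus strand). Capitals mark the E2F words and the CCAAT box (CCAAT, in 34.6% of windows), of which *UHRF1* and *HELLS* hold both.
UHRF1: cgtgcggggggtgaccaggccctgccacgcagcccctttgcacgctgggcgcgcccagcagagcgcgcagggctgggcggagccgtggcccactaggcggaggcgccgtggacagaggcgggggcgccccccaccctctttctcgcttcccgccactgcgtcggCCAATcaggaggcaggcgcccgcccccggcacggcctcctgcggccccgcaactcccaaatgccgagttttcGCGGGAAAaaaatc
HELLS: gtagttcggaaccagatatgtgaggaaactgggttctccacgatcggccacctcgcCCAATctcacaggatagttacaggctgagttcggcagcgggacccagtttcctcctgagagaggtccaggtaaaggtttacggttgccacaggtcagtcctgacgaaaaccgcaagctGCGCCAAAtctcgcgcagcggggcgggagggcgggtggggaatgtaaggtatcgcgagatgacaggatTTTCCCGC
CDCA7: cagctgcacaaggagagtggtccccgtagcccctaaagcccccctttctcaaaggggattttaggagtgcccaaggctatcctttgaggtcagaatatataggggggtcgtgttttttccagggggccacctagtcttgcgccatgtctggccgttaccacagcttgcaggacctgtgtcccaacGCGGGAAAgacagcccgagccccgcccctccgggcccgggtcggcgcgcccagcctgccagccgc
TET3: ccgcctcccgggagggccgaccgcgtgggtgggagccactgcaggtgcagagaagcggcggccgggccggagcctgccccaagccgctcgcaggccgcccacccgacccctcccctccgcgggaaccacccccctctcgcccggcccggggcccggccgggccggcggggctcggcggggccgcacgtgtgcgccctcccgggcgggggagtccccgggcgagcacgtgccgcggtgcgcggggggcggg
DNMT1: catcggtttccGCGCGAAAagccggggcgc

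The E2F word of *UHRF1* lay at positions -14 to -7 from the start, that of *CDCA7* at -65 to -58, and *HELLS* held one at -76 to -69 and another at -8 to -1. The 5 matches did not overlap a match to another motif. The windows of *DNMT3A*, *DNMT3B*, *CDCA7L*, *TET1*, *TET2* and *TET3* held none of the 4 words. That of *DNMT3B* is not at the start of its canonical transcript, and the bases around that start were not searched. A GC box (GGGCGG) was found in 7 of the 10 windows and in 44.9% of all windows, the CCAAT box in 3 of the 10, and the cell cycle homology word TTTGAA in 0 of the 10 and 15.2% of all. CpG dinucleotides, the substrate of these enzymes, numbered 46 in the window of *DNMT3A* and 45 in that of *TET3*, against a median of 14 over all windows, but 10 in that of *TET1*. The window of *DNMT3B* in the table held 3, and it begins from a start 17467 bases from that of the canonical transcript.

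With AZD5153 at 24 hours, 9 of the 10 genes fell and 0 rose (limma, adjusted p under 0.05). Of the 15599 genes tested 68.5% passed the test, 34.6% as lower and 33.9% as higher. At 48 hours 8 fell and 0 rose, while 67% of all genes passed, 33.9% as lower and 33.1% as higher. *CDCA7* and *UHRF1* fell furthest at 24 hours, to 0.259 and 0.277 of the DMSO level, and *CDCA7* and *DNMT3A* at 48 hours, to 0.352 and 0.353. The paper on these data already names *CDCA7* and *UHRF1* among cell cycle genes lowered by BET inhibition. The 10 genes were listed with earlier results of these data known. *TET3* did not pass the test at either time and *HELLS* did not at 48 hours. The median log2 fold change of the 10 genes was -0.95 at 24 hours and -1.01 at 48 hours, beside 0.00037 and 0.0011 over all genes tested. The libraries of 9 genes lay wholly below those of DMSO at each time, against 34.8% of all genes at 24 hours and 37.2% at 48 hours. The same 8 genes fell at both times, as did 27.1% of all genes. All 10 genes passed the minimum mean of 10 normalized counts that was set for testing, with means from 149 for *TET1* to 6574 for *DNMT1*.

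**Figure D1:**
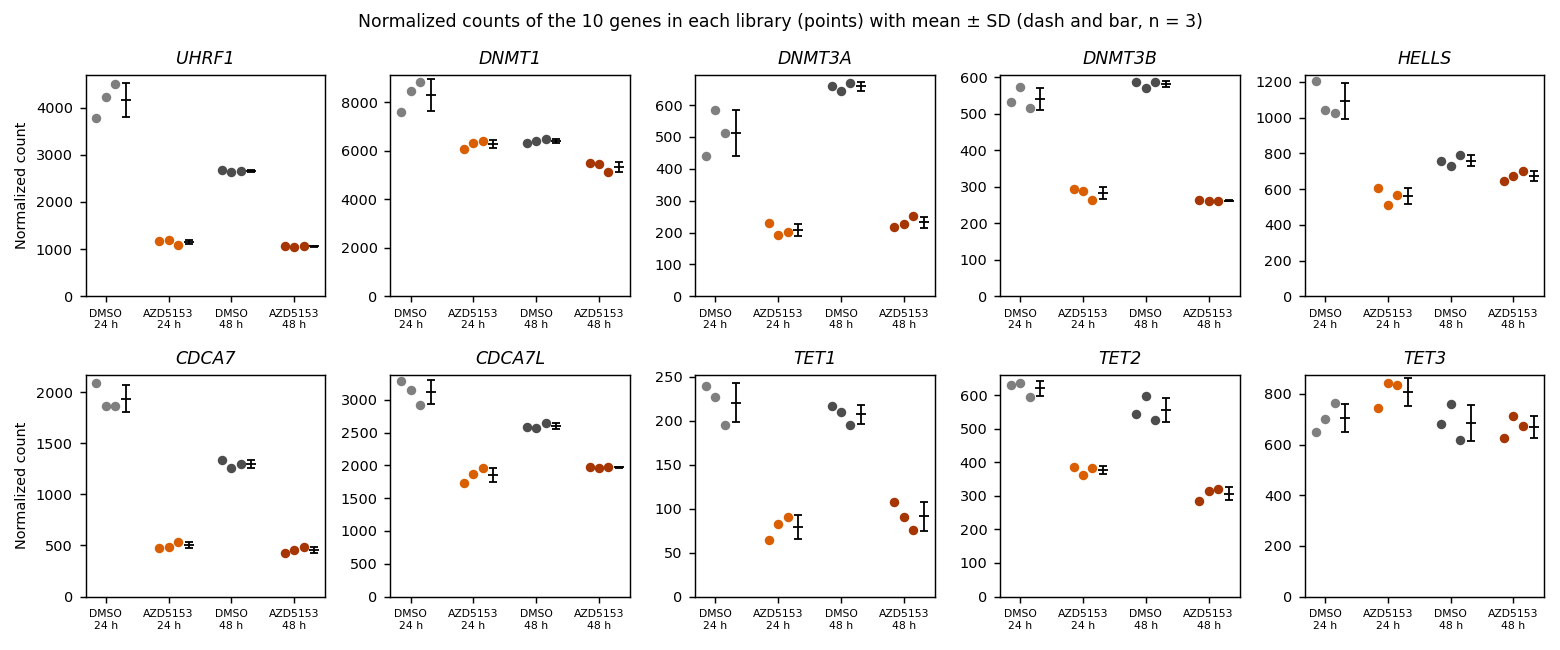
Normalized counts (gene counts divided by the size factor of the library) of the 10 genes, 1 panel each, with a point for each library and the mean ± SD of 3 libraries beside them, in DMSO (grey) and AZD5153 (orange) at 24 and 48 hours. In 9 panels the orange points at each time lie below the grey ones, and in the *TET3* panel they overlap.

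*UHRF1* (ENSG00000276043, chr19:4903080-4962154, plus strand, protein coding, 17 exons in its canonical transcript), the reader of hemimethylated CpG, had 3777, 4224 and 4493 normalized counts in the DMSO libraries at 24 hours and 1173, 1188 and 1095 in the AZD5153 libraries. At 48 hours the DMSO libraries had 2687, 2644 and 2660 and the AZD5153 libraries 1068, 1051 and 1061. The groups did not overlap at either time, and the 6 treated libraries differed among themselves far less than the DMSO groups did between times. *UHRF1* fell by 1.85 on the log2 scale at 24 hours (SE 0.0616, adjusted p = 6.03e-13) and by 1.33 at 48 hours (SE 0.0616, adjusted p = 2.57e-11).

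*DNMT1* (ENSG00000130816, chr19:10133342-10231286, minus strand, 41 exons), the maintenance methyltransferase, had the highest counts of the 10 genes and a small response. The DMSO libraries had 7574, 8474 and 8832 normalized counts at 24 hours and the AZD5153 libraries 6068, 6323 and 6412. At 48 hours the values were 6317, 6380 and 6489 with DMSO and 5482, 5433 and 5104 in AZD5153. No treated library reached a DMSO library of the same time, but the AZD5153 libraries at 24 hours lay within or close to the range of DMSO at 48 hours. *DNMT1* fell by 0.40 at 24 hours (SE 0.0543, adjusted p = 7.40e-06) and by 0.26 at 48 hours (SE 0.0543, adjusted p = 0.000509) on the log2 scale. *S1PR2* shares exon sequence with *DNMT1* on the same strand and had a mean of 66.1 normalized counts.

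The ratio of *UHRF1* to *DNMT1* counts within a library, which does not depend on the scaling between libraries, was 0.502 ± 0.00586 with DMSO and 0.184 ± 0.0117 with AZD5153 at 24 hours (SD, n = 3). At 48 hours it was 0.417 ± 0.00792 and 0.199 ± 0.00799 (SD, n = 3). The treated and the DMSO libraries did not overlap in this ratio, so the partners of the maintenance step changed unequally.

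*DNMT3A* (ENSG00000119772, chr2:25227855-25342590, minus strand, 23 exons), a de novo methyltransferase active in neural development, had 441, 584 and 512 normalized counts with DMSO and 229, 192 and 201 with AZD5153 at 24 hours. At 48 hours it had 661, 645 and 671 with DMSO and 219, 227 and 252 in AZD5153. The treated libraries were below every DMSO library, and the DMSO libraries spread most at 24 hours, where replicate 1 was the lowest. *DNMT3A* fell by 1.29 at 24 hours (SE 0.109, adjusted p = 3.01e-08) and by 1.50 at 48 hours (SE 0.109, adjusted p = 5.08e-09) on the log2 scale.

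*DNMT3B* (ENSG00000088305, chr20:32762385-32809359, plus strand, 23 exons), the de novo enzyme that is mutated in ICF syndrome, had 531, 574 and 514 normalized counts with DMSO and 294, 289 and 263 with AZD5153 at 24 hours. The 48-hour libraries had 587, 571 and 586 with DMSO and 263, 261 and 260 in AZD5153. The 6 treated libraries lay in a narrow band from 260 to 294, under all DMSO libraries. *DNMT3B* fell by 0.93 at 24 hours (SE 0.0811, adjusted p = 4.45e-08) and by 1.15 at 48 hours (SE 0.0811, adjusted p = 3.66e-09) on the log2 scale. The ratio of *DNMT3B* to *DNMT3A* counts within a library was 1.06 ± 0.122 with DMSO and 1.36 ± 0.119 with AZD5153 at 24 hours, and 0.883 ± 0.00741 and 1.13 ± 0.0849 at 48 hours (SD, n = 3).

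*HELLS* (ENSG00000119969, chr10:94545329-94613905, plus strand, 22 exons), the SNF2-family remodeller, had 1206, 1045 and 1028 normalized counts with DMSO and 606, 512 and 564 with AZD5153 at 24 hours. At 48 hours it had 756, 729 and 790 with DMSO and 643, 674 and 701 in AZD5153. The groups were far apart at 24 hours and nearly met at 48 hours, with the highest treated library at 701 and the lowest DMSO library at 729. *HELLS* fell by 0.96 on the log2 scale at 24 hours (SE 0.0819, adjusted p = 3.56e-08), whereas at 48 hours its log2 fold change was -0.17 (SE 0.0819, 95% interval -0.35 to 0.00095, adjusted p = 0.0731). Without the DMSO 24-hour replicate 1, which leaves this fold change at -0.17 and alters the shared estimate of the spread, its adjusted p at 48 hours was 0.0315. It was 0.0192 when only the 48-hour groups were fitted, and on scaling to equal totals the fold change was -0.34 (adjusted p = 0.00165).

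*CDCA7* (ENSG00000144354, chr2:173354820-173368997, plus strand, 10 exons), the partner that activates HELLS, had 2085, 1861 and 1859 normalized counts with DMSO and 479, 488 and 534 with AZD5153 at 24 hours. After 48 hours it had 1334, 1260 and 1296 with DMSO and 423, 460 and 485 in AZD5153. The treated libraries of both times overlapped each other and lay under all DMSO libraries. *CDCA7* fell by 1.95 at 24 hours (SE 0.0739, adjusted p = 2.54e-12) and by 1.51 at 48 hours (SE 0.0739, adjusted p = 4.90e-11) on the log2 scale, the largest fall of the 10 genes at 24 hours and one close to that of *DNMT3A* at 48 hours.

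*CDCA7L* (ENSG00000164649, chr7:21900899-21945903, minus strand, 10 exons), the paralog of *CDCA7*, had 3291, 3145 and 2930 normalized counts with DMSO and 1732, 1870 and 1955 with AZD5153 at 24 hours. The values at 48 hours were 2582, 2568 and 2646 with DMSO and 1974, 1962 and 1982 in AZD5153. It moved in the same direction as *CDCA7* and less far, falling by 0.75 at 24 hours (SE 0.0567, adjusted p = 8.09e-09) and by 0.40 at 48 hours (SE 0.0567, adjusted p = 1.28e-05) on the log2 scale. An exon of *DNAH11* on the opposite strand overlaps *CDCA7L* and the strand setting of the counting is not given in the sources used here. *DNAH11* had a mean of 52.6 normalized counts, beside 2387 for *CDCA7L*.

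The ratio of *CDCA7* to *CDCA7L* counts within a library was 0.620 ± 0.0244 with DMSO and 0.270 ± 0.00793 with AZD5153 at 24 hours, and 0.499 ± 0.0153 and 0.231 ± 0.0154 at 48 hours (SD, n = 3). That of *HELLS* to *CDCA7* was 0.564 ± 0.0129 with DMSO and 1.12 ± 0.123 with AZD5153 at 24 hours, and 0.585 ± 0.0225 and 1.48 ± 0.0386 at 48 hours (SD, n = 3). Neither ratio overlapped between treated and DMSO libraries of the same time. Thus the count ratio within the HELLS complex shifted toward *HELLS* and, within the paralog pair, toward *CDCA7L*.

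*TET1* (ENSG00000138336, chr10:68560337-68694487, plus strand, 12 exons), a dioxygenase that binds CpG-rich DNA through its CXXC domain, was the least counted of the 10 genes. It had 239, 227 and 195 normalized counts with DMSO and 64.4, 81.9 and 90.6 with AZD5153 at 24 hours, and at 48 hours 216, 210 and 195 with DMSO and 108, 90.2 and 75.3 in AZD5153. Every treated library was below every DMSO library, but the spread in AZD5153 was wide for so few counts, with a coefficient of variation of 16.9% and 17.8%. *TET1* fell by 1.48 at 24 hours (SE 0.163, adjusted p = 7.20e-07) and by 1.19 at 48 hours (SE 0.163, adjusted p = 7.87e-06) on the log2 scale.

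*TET2* (ENSG00000168769, chr4:105145875-105279816, plus strand, 11 exons), a dioxygenase often mutated in blood cancers, had 631, 636 and 595 normalized counts with DMSO and 386, 363 and 384 with AZD5153 at 24 hours. By 48 hours the values were 545, 598 and 527 with DMSO and 284, 315 and 319 in AZD5153. The groups did not overlap at either time, and *TET2* fell by 0.71 at 24 hours (SE 0.0824, adjusted p = 1.26e-06) and by 0.86 at 48 hours (SE 0.0824, adjusted p = 1.41e-07) on the log2 scale.

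*TET3* (ENSG00000187605, chr2:73984910-74108176, plus strand, 12 exons), the dioxygenase of the zygote and of neurons, had 649, 702 and 762 normalized counts with DMSO and 743, 845 and 834 with AZD5153 at 24 hours. At 48 hours it had 681, 761 and 619 with DMSO and 626, 712 and 674 in AZD5153. The groups overlapped at both times. The log2 fold change was 0.20 at 24 hours (95% interval 0.0036 to 0.39, adjusted p = 0.0659) and -0.03 at 48 hours (95% interval -0.22 to 0.16, adjusted p = 0.774), so changes within these bounds could not be told from 0 at 48 hours. At 24 hours the test was passed under the edgeR quasi-likelihood test (log2 fold change 0.21, adjusted p = 0.0472) and without 1 of the libraries DMSO 24-hour replicate 3 (0.25, adjusted p = 0.0273) or AZD5153 24-hour replicate 1 (0.26, adjusted p = 0.0370).

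Relative to *TET3*, the counts of the other TET genes were lower in every treated library than in every DMSO library. The ratio of *TET1* to *TET3* counts was 0.316 ± 0.0563 with DMSO and 0.0974 ± 0.0110 with AZD5153 at 24 hours, and 0.303 ± 0.0234 and 0.137 ± 0.0314 at 48 hours (SD, n = 3). The ratio of *TET2* to *TET3* counts was 0.886 ± 0.0976 and 0.470 ± 0.0455 at 24 hours, and 0.812 ± 0.0347 and 0.456 ± 0.0155 at 48 hours (SD, n = 3).

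**Figure D2:**
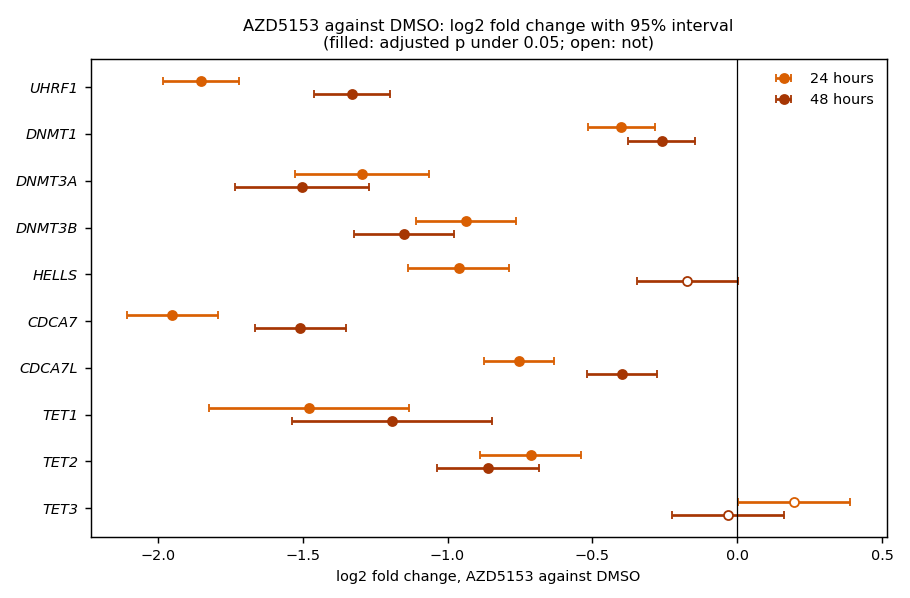
The log2 fold change of each gene in AZD5153 against DMSO from the limma fit at 24 hours (orange) and 48 hours (dark red), with its 95% interval; a filled point marks an adjusted p under 0.05. Points for *UHRF1*, *HELLS*, *CDCA7* and *CDCA7L* lie nearer 0 at 48 than at 24 hours, and those of *TET3* straddle 0.

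The responses at 24 and 48 hours were compared by an interaction term. The fold change was higher at 48 than at 24 hours for 4 of the 10 genes and lower for 0, where 24.5% of all genes tested passed, 14.4% as higher and 10.1% as lower. These were *UHRF1* (difference 0.52, SE 0.0872, adjusted p = 0.000507), *HELLS* (0.79, SE 0.116, adjusted p = 0.000175), *CDCA7* (0.44, SE 0.105, adjusted p = 0.00629) and *CDCA7L* (0.36, SE 0.0802, adjusted p = 0.00467), all on the log2 scale, and in each the fall was thus smaller at 48 hours. On scaling to equal totals these 4 calls were kept, while over all genes 1760 differences were called higher and 1891 lower. The difference for *DNMT1* was 0.14 (95% interval -0.02 to 0.30, adjusted p = 0.201), and without the DMSO 24-hour replicate 1 it was 0.20 (adjusted p = 0.00897). Those for *DNMT3A* and *DNMT3B* were -0.21 (-0.53 to 0.12) and -0.22 (-0.46 to 0.03), and neither passed the test. The difference for *DNMT3A* was -0.10 without the DMSO 24-hour replicate 1 and -0.31 without replicate 2 of that group. For *TET1*, *TET2* and *TET3* the differences were 0.29 (-0.20 to 0.78), -0.15 (-0.40 to 0.10) and -0.23 (-0.50 to 0.04), and none passed the test. With 1 library left out in turn, that of *TET1* ranged from 0.15 to 0.41, that of *TET2* from -0.19 to -0.09 and that of *TET3* from -0.30 to -0.15.

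Each of these differences is the change from 24 to 48 hours in AZD5153 minus that in DMSO, and both comparisons share libraries with the treatment comparisons. In DMSO, 5 genes were lower at 48 hours and 1 was higher, where 35.7% of all genes passed, 19.3% as lower and 16.4% as higher. *UHRF1* fell by 0.64 on the log2 scale from 24 to 48 hours (SE 0.0616, adjusted p = 1.98e-06), *CDCA7* by 0.58 (SE 0.0739, adjusted p = 2.78e-05), *HELLS* by 0.52 (SE 0.0819, adjusted p = 0.000150), *DNMT1* by 0.37 (SE 0.0543, adjusted p = 8.48e-05) and *CDCA7L* by 0.26 (SE 0.0567, adjusted p = 0.00195). In all 5 the DMSO libraries at 48 hours were below every DMSO library at 24 hours, as they were for 24.1% of all genes. *DNMT3A* alone rose in DMSO, by 0.37 (SE 0.109, adjusted p = 0.0143), and without the DMSO 24-hour replicate 1 its value was 0.27 (adjusted p = 0.0511). *DNMT3B* had 0.11, *TET1* -0.08, *TET2* -0.16 and *TET3* -0.04, and their libraries of both times overlapped. Leaving out 1 library in turn moved *TET1* from -0.17 to -0.02 and *TET3* from -0.11 to 0.03, so the direction of *TET3* was not fixed.

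In AZD5153, 3 genes were lower and 1 was higher at 48 than at 24 hours, where 29.7% of all genes passed, 13.8% as lower and 15.8% as higher. *DNMT1* fell by 0.23 (SE 0.0543, adjusted p = 0.00442), *TET2* by 0.31 (SE 0.0824, adjusted p = 0.0107) and *TET3* by 0.27 (SE 0.0907, adjusted p = 0.0367) on the log2 scale. *HELLS* rose by 0.26 (SE 0.0819, adjusted p = 0.0232), but lost its call without AZD5153 24-hour replicate 2, 48-hour replicate 2 or 48-hour replicate 3, with 0.20, 0.26 and 0.23. The call of *TET2* was lost without AZD5153 48-hour replicate 1 (-0.25), and that of *TET3* under 9 of 24 alternative settings. On scaling to the 7 stably expressed genes named in the methods of the study, 0 genes were lower and 2 higher, and *DNMT1* had -0.15 (adjusted p = 0.0892), so the falls over this time depend on the scaling. *UHRF1* had -0.12, *CDCA7* -0.13, *CDCA7L* 0.09, *DNMT3A* 0.16, *DNMT3B* -0.11 and *TET1* 0.20, none of which passed the test. These small values moved with the libraries used, that of *TET1* from 0.06 to 0.33 with 1 library left out in turn, that of *CDCA7L* from 0.05 to 0.13 and that of *CDCA7* from -0.18 to -0.08.

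**Figure D3:**
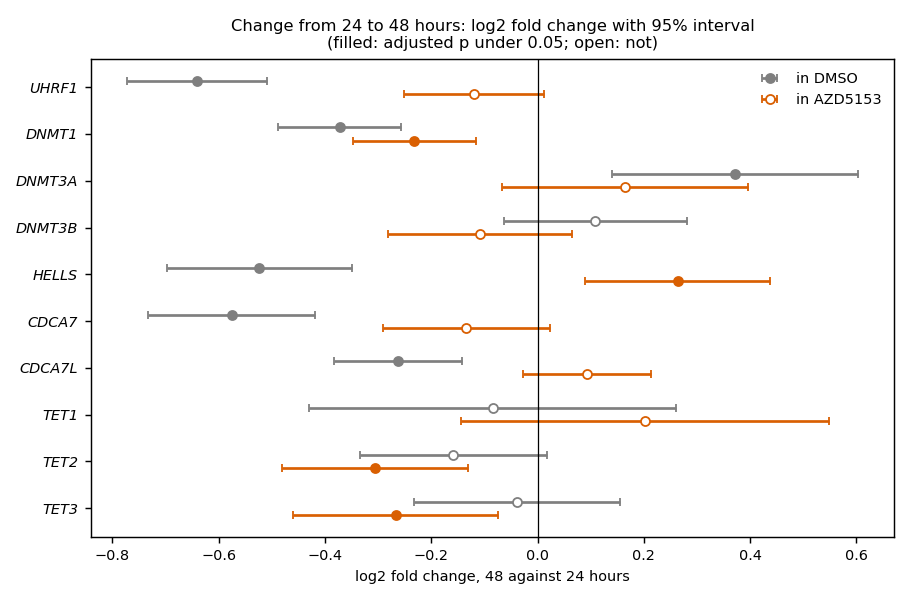
The log2 fold change from 24 to 48 hours of each gene in DMSO (grey) and in AZD5153 (orange) with its 95% interval; filled points have an adjusted p under 0.05. *UHRF1*, *DNMT1*, *HELLS*, *CDCA7* and *CDCA7L* lie left of 0 in DMSO, from -0.64 to -0.26, while *HELLS* lies right of 0 in AZD5153 at 0.26.

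Transcripts of the S phase were counted beside these genes. Of 40 S phase genes of the Seurat list (which also names *UHRF1*, *HELLS* and *CDCA7*, left out here), 38 fell and 0 rose with AZD5153 at 24 hours, with a median log2 fold change of -1.50, and 33 fell and 3 rose at 48 hours, with a median of -0.75. Over all genes tested 34.6% were lower at 24 hours and 33.9% at 48 hours. The summed normalized counts of the list were 92475 ± 3101 with DMSO and 38277 ± 700 with AZD5153 at 24 hours, and 64341 ± 350 and 43005 ± 366 at 48 hours (SD, n = 3). From 24 to 48 hours, 38 of the 40 fell in DMSO (19.3% of all genes tested), while 21 rose and 2 fell in AZD5153 (15.8% and 13.8% of all genes tested). Of 53 G2/M genes tested, 51 fell and 2 rose at 24 hours and 48 fell and 3 rose at 48 hours. *UHRF1*, *HELLS*, *CDCA7*, *CDCA7L* and *DNMT1* likewise fell in DMSO from 24 to 48 hours, whereas *DNMT3A* rose and *DNMT3B*, *TET1*, *TET2* and *TET3* did not pass the test. Under AZD5153 more S phase genes rose than fell over that time. *HELLS* was the 1 gene of the 10 that rose, a call lost without any 1 of 3 AZD5153 libraries. *DNMT1*, *TET2* and *TET3* fell, calls lost on scaling to the stably expressed genes named in the methods of the study. *UHRF1*, *CDCA7*, *CDCA7L*, *DNMT3A*, *DNMT3B* and *TET1* did not pass the test. The part of the cell cycle in these results was not tested.

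**Figure D4:**
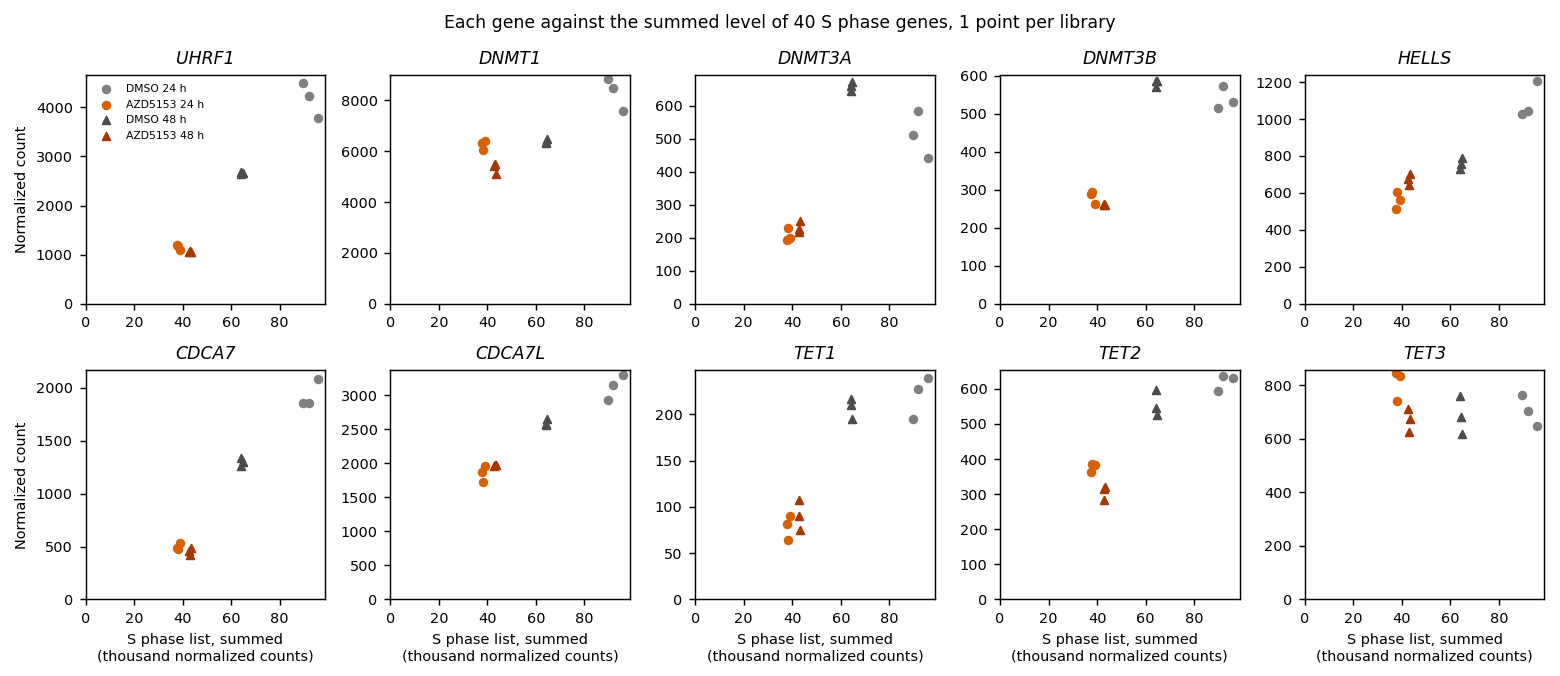
Normalized counts of each gene (vertical axes from 0) against the summed normalized counts of 40 S phase genes, with 1 point for each of the 12 libraries. From 92475 in DMSO at 24 hours to 64341 at 48 hours on the horizontal axis, *UHRF1* and *CDCA7* move down, while *DNMT3B* and *TET1* stay at about their level, and *TET3* lies between 619 and 845 in all libraries.

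Levels can be compared between genes only per transcript length, and were expressed as TPM, the reads per base of the canonical transcript scaled to the same total in every library. In DMSO at 24 hours *DNMT1* was highest with 217 ± 12.9 TPM, followed by *CDCA7L* with 150 ± 11.7 and *UHRF1* with 148 ± 9.95, whose libraries overlapped (SD, n = 3). *CDCA7* followed with 96.4 ± 8.25, *HELLS* with 48.4 ± 5.27 and *DNMT3B* with 17.2 ± 1.12 TPM. *TET2* at 8.95 ± 0.482, *TET3* at 8.07 ± 0.484 and *DNMT3A* at 7.51 ± 1.00 overlapped with their neighbours in that order, and *TET1* was lowest at 3.18 ± 0.386 TPM. These are descriptions over 3 libraries.

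In AZD5153 at 24 hours *DNMT1* stood at 141 ± 5.77 TPM, *CDCA7L* at 76.1 ± 5.61 and *UHRF1* at 35.0 ± 0.947, and *UHRF1* no longer overlapped with *CDCA7L*. *CDCA7* with 21.3 ± 1.60 and *HELLS* with 21.2 ± 1.85 overlapped, as did *TET3* with 7.93 ± 0.602 and *DNMT3B* with 7.69 ± 0.330. *TET2* had 4.67 ± 0.205, *DNMT3A* 2.61 ± 0.235 and *TET1* 0.974 ± 0.176 TPM. In DMSO at 48 hours the order was *DNMT1* (174), *CDCA7L* (129), *UHRF1* (97.8), *CDCA7* (66.8), *HELLS* (34.7), *DNMT3B* (19.2), *DNMT3A* (10.0), *TET2* (8.31), *TET3* (8.16) and *TET1* (3.09), of which only *TET2* and *TET3* overlapped. In AZD5153 at 48 hours it was *DNMT1* (119), *CDCA7L* (80.3), *UHRF1* (31.9), *HELLS* (25.2), *CDCA7* (19.3), *DNMT3B* (7.07), *TET3* (6.53), *TET2* (3.75), *DNMT3A* (2.90) and *TET1* (1.11), with no overlap between neighbours. On the canonical length *HELLS* stood above *CDCA7* without overlap in that group alone, whereas with the merged length of all exons it had 9.89 and *CDCA7* 20.3 TPM there. On the canonical length *TET3* stood above both *TET2* and *DNMT3A* in both treated groups. With the merged length in place of the canonical transcript, *UHRF1* (204) and *CDCA7L* (202) came before *DNMT1* (136) and *HELLS* dropped to 19.4 TPM in DMSO at 24 hours, so the order of the genes depends on the length used.

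**Figure D5:**
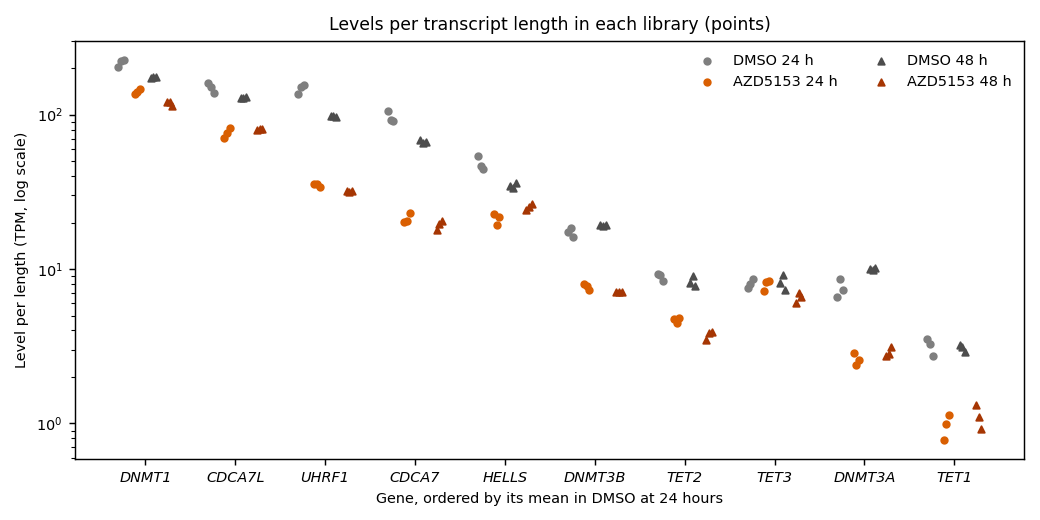
TPM on the canonical transcript length (log axis) for each gene, ordered by its mean in DMSO at 24 hours, with 1 point per library in DMSO (grey) and AZD5153 (orange) at 24 hours (circles) and 48 hours (triangles). *DNMT1* is highest in each group, from 119 to 217 TPM, and *TET1* lowest, from 0.974 to 3.18 TPM.

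Partners of the maintenance and de novo steps were counted from a list of 9 genes, of which 7 were tested and *DNMT3L* and *DPPA3* were at 0. At 24 hours 6 fell and 0 rose, with a median log2 fold change of -0.91, where 34.6% of all genes tested were lower and 33.9% higher. At 48 hours 5 fell and 1 rose, with a median of -0.44, where 33.9% were lower and 33.1% higher. *PCLAF*, which binds the replication clamp, fell by 1.80 at 24 hours and by 1.11 at 48 hours on the log2 scale, and the replicative ligase *LIG1* fell by 1.28 and by 1.07. *PCNA*, the clamp itself and also an S phase list gene, fell by 1.07 and by 0.41, and *UHRF2*, the paralog of *UHRF1*, fell by 0.91 and by 0.62. *USP7*, the deubiquitinase that stabilizes UHRF1 and DNMT1 proteins, fell by 0.18 at 24 hours and rose by 0.21 at 48 hours, and is named as the single gene that rose, after its values were seen.

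Among 14 genes of the TET and base excision route, 7 rose and 3 fell at 24 hours, where 33.9% of all genes tested were higher and 34.6% lower, and 5 rose and 4 fell at 48 hours, where 33.1% were higher and 33.9% lower. The counts at 48 hours lie close to these shares. *CXXC4*, which binds TET2, fell, with log2 fold changes of -2.40 and -2.30 at the 2 times, and the glycosylase *NEIL3* fell by 1.99 and by 0.63. *IDH3A*, a subunit of the mitochondrial enzyme that makes the TET cosubstrate alpha-ketoglutarate, rose by 0.97 and 1.50. *NEIL3* and *CXXC4* thus moved with *TET1* and *TET2*, and *IDH3A* the other way.

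Of 9 readers of methylated CpG, 5 fell and 3 rose at 24 hours (34.6% and 33.9% of all genes tested) and 4 fell and 2 rose at 48 hours (33.9% and 33.1% of all genes tested), so the share that rose was no higher than that over all genes. *ZBTB38* fell by 1.55 and by 1.39, and *MBD2* fell by 0.60 and by 0.26 on the log2 scale. *MBD1* rose by 0.48 and 0.46, and *MBD6* rose by 0.64 at 24 hours and had 0.09 at 48 hours, which did not pass the test. Of 10 genes of methyl donor supply, 5 rose and 3 fell at 24 hours and 4 rose and 3 fell at 48 hours, beside the same shares over all genes. *AHCY*, which removes the product inhibitor of methyltransferases, rose by 0.69 and 0.89, and the serine hydroxymethyltransferase *SHMT1* fell by 1.03 and by 0.58. *GNMT*, with a mean of 21.1 normalized counts, rose by 0.78 at 24 hours and had -0.28 at 48 hours, which did not pass the test.

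Of 10 genes of histone H3 lysine methylation at the heterochromatin mark that UHRF1 reads, 8 fell and 1 rose at 24 hours and 6 fell and 1 rose at 48 hours, with medians of -0.41 and -0.27. One of the 10, *CBX5*, is also on the G2/M list. The methyltransferase *SUV39H1* fell by 2.41 and by 1.69 on the log2 scale and *EHMT2* fell by 0.65 and by 0.29. *SUV39H2* fell by 1.05 at 24 hours and had -0.23 at 48 hours, which did not pass the test. *TRIM28*, the corepressor that recruits SETDB1, rose by 0.54 and 0.83. Over the 5 lists of partners, 25 of 52 genes (all but *DNMT3L* and *DPPA3* tested) fell and 16 rose at 24 hours, and 22 fell and 13 rose at 48 hours. The rises lie near or below the share over all genes, which was 33.9% higher and 34.6% lower at 24 hours and 33.1% and 33.9% at 48 hours. Scaling to equal totals moved the median of all genes by -0.12 at 24 hours and -0.17 at 48 hours, with 11 of the 52 rising at 24 hours and 8 at 48 hours, so a small rise such as that of *USP7* is close in size to this shift.

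For each gene the 3 most similar genes were taken by the Pearson correlation of log2 values over the 12 libraries, among 10848 genes with a symbol, given as a description because the points share 4 groups. *UHRF1* was most like *PSMC3* (r = 0.998), *BIRC5* (0.998) and *NUP62* (0.995), and *CDCA7* most like *MCM6* (0.998), *SEPHS1* (0.997) and *GJC1* (0.997). *HELLS* was most like *NCAPD3* (0.985), *ATAD2* (0.983) and *NUP43* (0.982), and *CDCA7L* most like *NUP205* (0.997), *RAD18* (0.995) and *NUP107* (0.995). *DNMT1* came closest to *HNRNPM* (0.979), *COLGALT1* (0.972) and *HNRNPL* (0.971). *DNMT3A* followed *MLLT6* (0.992), *HINT3* (0.991) and *SH3BP2* (0.991), and *DNMT3B* followed *HCAR1* (0.997), *PARP9* (0.995) and *SPOCD1* (0.994). *TET1* was closest to *DDB2* (0.988), *ARID2* (0.987) and *S100PBP* (0.987), and *TET2* to *PGAP4* (0.994), *BCOR* (0.993) and *ADAM12* (0.992). *TET3*, which varied little between groups, had lower correlations, with *DHX34* (0.847) and *ZNF324B* (0.830) among its nearest genes.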

How the data were processed

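RNA-Seq of 12 libraries of SF8628 cells was analysed, and the CUT&RUN samples of the study were not analysed here. Paired-end reads of 150 bp were aligned by the authors to hg38 (STAR), assigned to genes (HTSeq-count) and normalized (DESeq2). Versions, annotation and strand setting are not given in the sources used here. The deposited values are a signal: the reads of a gene over the DESeq2 size factor of that library. On this basis 100% of them came out as whole reads within 0.01 read. The authors also deposited the log2 fold change, its standard error, the test score and the p-values of their own comparison of AZD5153 with DMSO, which were not used.

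The 15599 genes whose mean normalized count reached 10 were tested with limma (lmFit and eBayes with trend) on log2(normalized count + 1), with the 4 groups in 1 fit (residual degrees of freedom 8) and p-values adjusted by Benjamini and Hochberg over all genes tested, at a threshold of 0.05. Fold changes are on this scale and slightly understate changes of low genes. TPM were computed from recovered reads per canonical transcript length in GENCODE 44, and positions are on GRCh38. Promoter sequences are those of RefSeq, and all 10 genes matched by symbol, *DNMT3B* with a start away from that of its canonical transcript.

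The named genes are the 10 members, at most 4 genes of each partner list with the largest absolute log2 fold change at 24 hours among those called, and the 3 genes most like each member among those with a mean of at least 100. A few genes that this rule names are not reported here. Members and lists were chosen with earlier results of these data known. The labels gave the group and replicate number of each library. The steps were tested on simulated data. Alternatives were tried for the pseudocount, the minimum mean, the scaling, the fit, the count models (edgeR and DESeq2 on recovered reads), the transcript length and each library left out in turn. Tools were limma 3.58.1, DESeq2 1.42.0 and edgeR 4.0.16 in R 4.3.3, and pandas 2.3.3, numpy 2.4.6 and matplotlib 3.10.9 in Python 3.11.15.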

Additional observations from a re-analysis of the deposited data

Results flagged for a closer look

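The response to AZD5153 differed between 24 and 48 hours by the interaction term of the limma fit for *UHRF1* (0.52 on the log2 scale), *HELLS* (0.79), *CDCA7* (0.44) and *CDCA7L* (0.36). In each the fall was smaller at 48 hours, and every call was kept under all 23 alternative settings run for these differences. In DMSO the same 4 genes fell from 24 to 48 hours, by 0.64, 0.52, 0.58 and 0.26 respectively, while in AZD5153 they had -0.12, 0.26, -0.13 and 0.09.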

How the results depend on the processing

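Under alternatives the 50 fold changes of the 10 genes had 1190 values. Of these, 1166 kept their side of the threshold, 16 lost and 8 gained a call, and 0 called values reversed. Values without a call could change sign, as did that of *TET3* from 24 to 48 hours in DMSO (-0.04, and 0.01 with equal totals). The count of genes falling at 24 hours stayed at 9 under every alternative. The count rising at 24 hours was 1 (*TET3*) under edgeR, and 0 to 1 with a library left out. From 24 to 48 hours in AZD5153 the counts higher and lower were 2 and 0 on scaling to the 7 stably expressed genes that the methods of the study name, where 0 S phase genes fell, and 0 to 1 and 1 to 3 with a library left out. In DMSO the count higher was 0 to 1. Scaling to equal totals shifted the median of all genes by -0.12 at 24 hours and -0.17 at 48 hours, where the share of higher calls moved from 49.4% to 37.3%, the partner genes that rose numbered 8, and *HELLS* had -0.34 (adjusted p = 0.00165), while *TET3* had 0.07 and -0.20. From 24 to 48 hours in DMSO that share moved from 45.8% to 56.2%, and for the difference between times from 58.9% to 48.2%. With the stably expressed genes it moved from 58.9% to 70.8% for the difference between times and from 53.4% to 71.3% in AZD5153, where *CDCA7L* rose (0.18) and *DNMT1* (-0.15), *TET2* (-0.22) and *TET3* (-0.18) did not pass. With merged exon lengths the summed level of the 10 genes was 724 instead of 704 TPM.

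Deviations of libraries with the same replicate number correlated from -0.15 to 0.036, and those with other numbers from -0.11 to 0.15. Deviations from the mean of 3 libraries are tied to each other within a group. This check therefore cannot exclude that libraries with the same number shared a culture. With the replicate block, 9 genes fell at 24 hours and 8 at 48 hours, and 10526 and 10290 of all genes were called instead of 10679 and 10453. Of the 10 genes *TET1* had the lowest counts and the largest SE (0.163).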
